A study of Mus musculus with 4 samples.

Results

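Collagens are secreted or membrane-bound proteins whose chains wind into a triple helix made of repeats that begin with glycine. Members were taken as the probe sets whose single gene symbol is that of a collagen chain. The array held 44 such probe sets out of 12488, for 31 collagen genes out of 8252 named genes, and the gene table used lists 44 collagen genes in the mouse. All 4 arrays of the study were used.

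The tissue was the lower molar tooth germ, dissected from NMRI mouse embryos on embryonic day 14 and kept on filters for 24 h in DMEM with 10% fetal calf serum. One group received 1 µM TCDD, the most toxic dioxin and a ligand of the aryl hydrocarbon receptor, from a DMSO stock, and the other received DMSO alone at 0.65%; the DMSO content of the TCDD medium is not on its labels. Each group had 2 arrays, each from a pool of about 60 explants gathered over 3 experiments, so a replicate is a pool and not an animal. Total RNA used for labelling was 11 µg for TCDD replicate 1, 8 µg for TCDD replicate 2, 11 µg for DMSO replicate 1 and 7 µg for DMSO replicate 2. Ascorbic acid, the cofactor of the hydroxylases that mature collagen chains, is listed in the medium of DMSO replicate 2 alone.

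Fibrillar collagens assemble into the rope-like fibrils of dentin, bone, tendon and loose mesenchyme. Network-forming collagens build the sheets, beaded filaments and anchoring fibrils on which epithelia rest, and in the tooth germ the basement membrane lies between the dental epithelium and the dental mesenchyme. Fibril-associated collagens sit on the surface of fibrils, and a further set spans the plasma membrane or carries sugar chains in basement membranes. Types II, IX, X and XI are best known from cartilage.

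Signals are MAS5 units, scaled by the authors to a target of 100 on each array. A signal depends on the probes as well as on the transcript, so the level of one probe set is not set against that of another. Differences are TCDD minus DMSO in the mean of log2(signal + 16), a scale that understates the difference of dim probe sets. The test was limma's moderated test over the 5783 probe sets whose signal averaged 50 or more, with p-values adjusted by Benjamini and Hochberg at a threshold of 0.05. Of the 44 collagen probe sets, 29 reached that mean and entered the fit, for 20 genes, and 15 did not. None of the 29 entered through 1 group alone, as both group means were at least 50 in each. With 2 arrays a group, exact permutation has a smallest two-sided p of 0.33, so it was not run.

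The tooth label was checked against markers. Of the epithelial markers, Dsp had signals of 1379.2 and 1566.5 with TCDD, against 936.4 and 1346.5 with DMSO. Krt5 and Krt14, keratins of stratified epithelium, were below 16 on each of the 4 arrays. Of the mesenchymal markers, Msx1 had 540.6 and 687.1 with TCDD, against 605.2 and 705.0 with DMSO. Lhx8, another transcription factor gene of oral mesenchyme, had 395.8 and 423.4 with TCDD, against 292.7 and 450.6 with DMSO.

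No collagen transcript passed the test for TCDD against DMSO. Limma called 0 of the 29 fitted collagen probe sets, where it called 4 of 5783 overall (0.0692%). At an unadjusted p under 0.05 limma gave 1 collagen probe set, that of Col7a1, beside 150 of all probe sets (2.59%). The adjusted p of each of the 29 was 0.997. The median log2 difference of the 29 was -0.07, beside 0.01 over all fitted probe sets, and counting each gene once by its brightest probe set it was -0.03. Of the 29, 10 were higher and 19 lower with TCDD, beside 51.1% higher and 48.9% lower over all. By the brightest probe set of each of the 20 genes, 9 were higher and 11 lower. The lean of the 29 also rests on single arrays, as their median was 0.00032 without DMSO replicate 1. The lowest difference was -0.67 for Col7a1, followed by -0.46 for Col9a3, and the highest was 0.45 for Col17a1. In bulk tissue fewer cells of a type and less RNA per cell cannot be told apart.

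The precision of the collagen values set what could be seen. The 95% interval was 0.92 wide on the log2 scale at the median collagen probe set. It included 0 at 28 of the 29 and lay within -1 and 1, a 2-fold difference either way, at 27. The exceptions to the last were Col7a1 and Col9a3. The median size of the difference between the groups was 0.14, against 0.20 between both TCDD arrays and 0.21 between both DMSO arrays, and over all fitted probe sets these were 0.15, 0.21 and 0.22. The difference between groups was larger than both gaps between replicates at 3 collagen probe sets, of Col1a1, Col6a2 and Col17a1, beside 999 of all fitted probe sets (17.3%).

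The TCDD and DMSO arrays did not overlap at 12 of the 29 collagen probe sets, 5 higher and 7 lower with TCDD. Over all fitted probe sets the arrays did not overlap at 29.8%, with 15.3% higher and 14.6% lower. The count rests on all 4 arrays, since fewer pairs have to part when 1 is left out. It was 20 of 29 without DMSO replicate 1, beside 59.5% of all fitted probe sets, and 24 of 30 without DMSO replicate 2, beside 69.6%. It was 19 of 29 without TCDD replicate 1, beside 61.8%, and 20 of 30 without TCDD replicate 2, beside 68.2%. Over all 44 the groups parted at 15, 6 higher and 9 lower, beside 31.6% of all probe sets on the array, with 10.8% higher and 20.8% lower. Among the fitted, those higher were Col1a1, Col1a2, Col4a1, Col6a2 and Col17a1, each at 1 probe set. Among the fitted, those lower were Col1a2 and Col3a1 at other probe sets, Col5a1, Col7a1, Col8a1, Col9a3 and Col15a1. Some margins were narrow: the nearest arrays of Col8a1 had 88.5 with TCDD and 88.6 with DMSO, and those of Col15a1 54.3 and 56.6. For Col5a1 (101080_at) they had 128.7 with TCDD and 131.0 with DMSO, and for Col4a1 534.1 and 523.1.

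**Figure D1:**
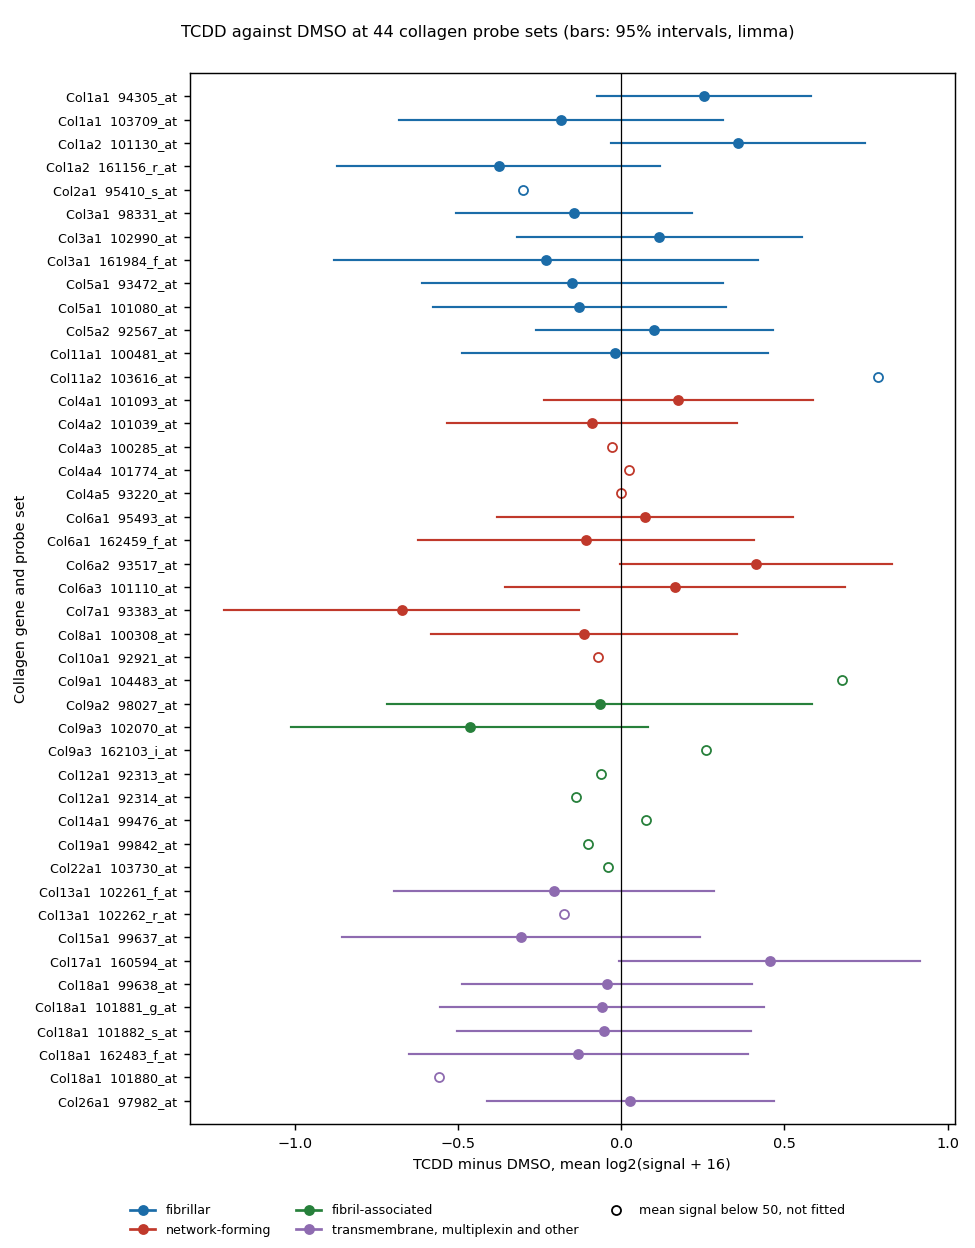
TCDD minus DMSO difference in mean log2(signal + 16) (horizontal axis) at the 44 collagen probe sets, by class; filled points with bars are fitted probe sets with their 95% intervals from limma, and open points have a mean signal below 50 and were not fitted. Col7a1 at -0.67 is the single fitted probe set whose interval leaves out 0.

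Type I collagen, the main fibrillar collagen of dentin and bone, was read at a bright and a dimmer probe set for each of its chains. Col1a1, the gene of its alpha 1 chain, had signals of 2400.3 and 2277.0 with TCDD at 94305_at, against 1960.8 and 1956.0 with DMSO. Col1a2, the gene of its alpha 2 chain, had 1802.9 and 1403.1 with TCDD at 101130_at, against 1288.7 and 1189.5 with DMSO. Both TCDD arrays were above both DMSO arrays for both chains. The log2 difference was 0.25 ± 0.15 (SE) for Col1a1, with a 95% interval of -0.07 to 0.58, and 0.36 ± 0.18 (SE) for Col1a2, with an interval of -0.03 to 0.75. Neither passed the limma test. Without TCDD replicate 1 the difference of Col1a2 was 0.18, and without TCDD replicate 2 it was 0.54.

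The second probe set of each type I gene ran the other way. Col1a1 at 103709_at had 335.3 and 328.4 with TCDD, against 469.9 and 305.3 with DMSO, a difference of -0.18 ± 0.22 (SE). Col1a2 at 161156_r_at had 177.7 and 166.9 with TCDD, against 276.2 and 188.0 with DMSO, a difference of -0.38 ± 0.22 (SE). At both, DMSO replicate 1 stood above the other 3 arrays. Without that array the difference was 0.11 for Col1a1 at 103709_at and -0.12 for Col1a2 at 161156_r_at.

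Col3a1, the gene of type III collagen of pliable connective tissue, was read at 3 probe sets. At 98331_at it had 1317.9 and 1149.2 with TCDD, against 1375.0 and 1348.7 with DMSO, a difference of -0.14 ± 0.16 (SE). At 102990_at it had 363.2 and 298.3 with TCDD, against 286.7 and 319.0 with DMSO. At 161984_f_at it had 239.5 and 142.2 with TCDD, against 291.8 and 164.9 with DMSO. The first put TCDD below DMSO without overlap, while the groups overlapped at the other 2. At 161984_f_at both replicate 1 arrays were above both replicate 2 arrays.

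Types V and XI are minor fibrillar collagens that mix into larger fibrils and help set their diameter. Col5a2 (92567_at) had 1588.9 and 1444.0 with TCDD, against 1315.1 and 1514.4 with DMSO. Col5a1, the partner chain of type V, had 226.8 and 276.1 with TCDD at 93472_at, against 312.5 and 249.6 with DMSO. At its other probe set, 101080_at, Col5a1 had 121.4 and 128.7 with TCDD, against 131.0 and 145.6 with DMSO. The differences of Col5a1 were -0.15 ± 0.21 and -0.13 ± 0.20 and that of Col5a2 was 0.10 ± 0.16 (SE), none past the limma test. Col11a1, a chain of type XI (100481_at), had 237.2 and 269.0 with TCDD, against 220.5 and 296.9 with DMSO. Its difference of -0.02 ± 0.21 (SE) had a 95% interval of -0.49 to 0.45. Of the fibrillar class, 11 of 13 probe sets were fitted, 4 higher and 7 lower.

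**Figure D2:**
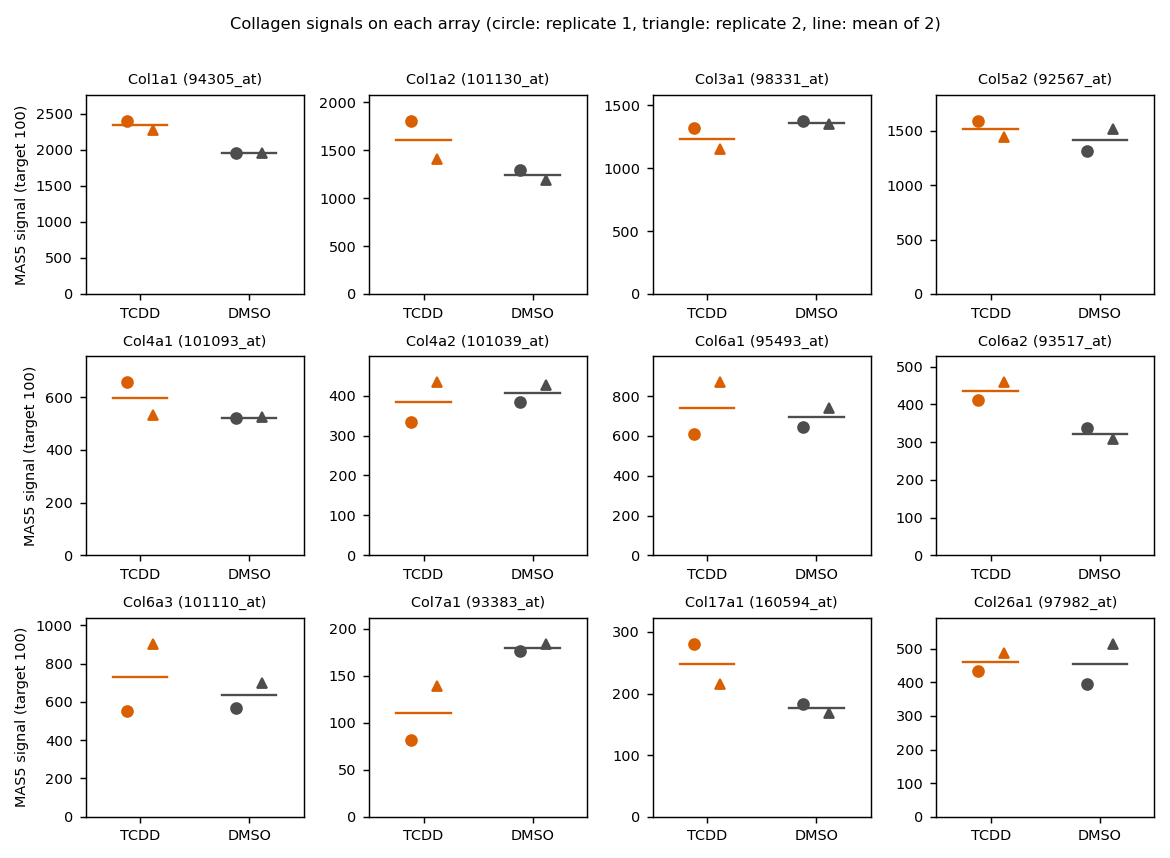
MAS5 signal (vertical axis, from 0) of 12 collagen probe sets on each array, with TCDD left of DMSO; circles are replicate 1, triangles replicate 2 and lines the mean of 2 arrays. Groups part at Col1a1, Col1a2, Col3a1, Col4a1, Col6a2, Col7a1 and Col17a1 and overlap at the other 5.

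Type IV collagen forms the mesh of basement membranes, and its ubiquitous chains, from Col4a1 and Col4a2, are encoded head to head on opposite strands. Both RefSeq start windows are shown because the pair shares its start region. Each window runs from 250 bases before to 50 bases after the annotated start, in the GRCm38.p6 build, at chr8:11312777-11313076 on the minus strand for Col4a1 and chr8:11312555-11312854 on the plus strand for Col4a2. Capitals mark the 78 bases that both windows share, and the starts used for these windows lie 21 bases apart. In the gene table Col4a1 reaches to 11312889 and Col4a2 begins at 11312805, so the annotated genes overlap there.
Col4a1: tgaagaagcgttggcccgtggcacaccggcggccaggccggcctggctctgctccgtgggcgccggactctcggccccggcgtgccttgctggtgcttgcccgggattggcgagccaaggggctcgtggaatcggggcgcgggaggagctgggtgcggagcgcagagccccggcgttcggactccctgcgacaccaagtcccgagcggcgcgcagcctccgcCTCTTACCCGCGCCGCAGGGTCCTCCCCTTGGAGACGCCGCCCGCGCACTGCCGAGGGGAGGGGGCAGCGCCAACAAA
Col4a2: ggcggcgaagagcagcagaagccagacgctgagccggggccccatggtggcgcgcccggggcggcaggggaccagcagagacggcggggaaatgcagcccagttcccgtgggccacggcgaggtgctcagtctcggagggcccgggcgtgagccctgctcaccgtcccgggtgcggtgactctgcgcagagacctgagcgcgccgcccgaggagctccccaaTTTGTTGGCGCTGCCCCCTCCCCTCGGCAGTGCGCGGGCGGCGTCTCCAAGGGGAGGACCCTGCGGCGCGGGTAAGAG
Col4a1 (101093_at) had signals of 655.9 and 534.1 with TCDD, against 521.9 and 523.1 with DMSO. Col4a2 (101039_at) had 333.4 and 433.0 with TCDD, against 383.7 and 427.5 with DMSO. TCDD replicate 1 was the highest of the 4 arrays for Col4a1 and the lowest for Col4a2. The differences were 0.18 ± 0.19 and -0.09 ± 0.20 (SE), with 95% intervals of -0.24 to 0.59 and -0.53 to 0.36, so neither gene of the pair differed past the limma test. Col4a3, Col4a4 and Col4a5, chains of specialised basement membranes such as that of the kidney glomerulus, had mean signals over the arrays of 0.975, 3.70 and 34.8 and were not fitted.

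GCGTG, the core of the element bound by the aryl hydrocarbon receptor, was searched on both strands (GCGTG or CACGC) of the 300-base windows. RefSeq windows were counted for 22 of the 31 collagen genes, 25 windows in all. Any window of these symbols on 1 chromosome that holds none of the 31 genes was left out of the 25, but not of all windows. The motif lay in 6 of the 25 (24.0%), beside 10639 of all 32851 windows (32.4%). The windows with it belong to Col4a1, Col4a2, Col6a2, Col10a1, Col11a2 and Col13a1. The median GC content was 59.0% in the collagen windows and 52.7% in all windows. Of the genes with the largest fitted differences, Col9a3 had no counted window. The windows of Col7a1 and Col17a1 do not hold these letters and 1 of the 2 windows of Col6a2 does. Of the unfitted genes with differences of that size, Col11a2 (0.79) has the motif and Col9a1 (0.68) does not.

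Type VI collagen forms beaded filaments next to basement membranes and cells, from chains of Col6a1, Col6a2 and Col6a3. Col6a2 (93517_at) had 411.9 and 458.2 with TCDD, against 337.0 and 308.3 with DMSO. Col6a1 (95493_at) had 611.9 and 868.5 with TCDD, against 645.9 and 741.7 with DMSO. Col6a3 (101110_at) had 554.4 and 903.0 with TCDD, against 567.1 and 700.6 with DMSO. The groups parted for Col6a2 alone, and both other chains had their highest signal on TCDD replicate 2 and their lowest on TCDD replicate 1. The difference of Col6a2 was 0.41 ± 0.19 (SE), with a 95% interval of 0.00 to 0.83 whose lower bound is just under 0, and it kept its direction in each alternative run, between 0.34 and 0.49. Those of Col6a1 and Col6a3 were 0.07 ± 0.21 and 0.16 ± 0.24 (SE) and became -0.17 and -0.18 without TCDD replicate 2. A second, dimmer probe set of Col6a1 (162459_f_at) had 200.3 and 145.0 with TCDD, against 216.3 and 158.0 with DMSO, with both replicate 1 arrays above both replicate 2 arrays.

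Col7a1 and Col17a1 encode collagens of the attachment of epithelium to its basement membrane, and they differed in opposite directions. Col7a1, the gene of anchoring fibrils (93383_at), had 81.5 and 139.5 with TCDD, against 176.2 and 184.2 with DMSO. Col17a1, the gene of a transmembrane collagen of the hemidesmosome (160594_at), had 280.7 and 216.2 with TCDD, against 183.5 and 168.0 with DMSO. TCDD and DMSO values did not overlap for either gene, and TCDD replicate 1 lay farther from DMSO than TCDD replicate 2 for both. Col7a1 averaged 110 ± 41.0 with TCDD and 180 ± 5.66 with DMSO, and Col17a1 averaged 248 ± 45.6 with TCDD and 176 ± 11.0 with DMSO (SD, n = 2 each). The log2 difference of Col7a1 was -0.67 ± 0.25 (SE), with a 95% interval of -1.22 to -0.13, an unadjusted p of 0.020 and a limma adjusted p of 0.997. That of Col17a1 was 0.45 ± 0.21 (SE), with an interval of -0.01 to 0.92.

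Neither epithelial collagen was called under any alternative. Without TCDD replicate 1 the differences were -0.34 for Col7a1 and 0.28 for Col17a1, and without TCDD replicate 2 they were -1.01 and 0.63. With the replicate number as a block, a pairing that no label states, the limma adjusted p of Col7a1 was 0.0878, the smallest of the collagens. The summed signal of 7 epithelial markers was 2426 and 2699 with TCDD, against 1693 and 2324 with DMSO. That sum is led by its brightest members, Dsp and Perp. Perp had 756.8 and 738.0 with TCDD, against 393.2 and 592.1 with DMSO. Cdh1 lay lower without overlap, at 101.2 and 120.5 with TCDD, against 170.3 and 141.1 with DMSO. Of the 5 fitted markers 3 were higher and 2 lower. The part of epithelial content in the values of Col7a1 and Col17a1 was not tested.

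The other network-forming collagens gave little signal or small differences. Col8a1, the gene of a hexagonal network beneath endothelia (100308_at), had 79.8 and 88.5 with TCDD, against 96.0 and 88.6 with DMSO. Col10a1, the marker of hypertrophic cartilage, had a mean signal of 7.75 and was not fitted. Of the network-forming class, 8 of 12 probe sets were fitted, 4 higher and 4 lower.

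Most fibril-associated collagens were below the minimum, with 2 of 9 probe sets fitted, both for chains of type IX, which coats cartilage fibrils. Col9a3 (102070_at) had 54.6 and 53.1 with TCDD, against 99.8 and 64.2 with DMSO. Col9a2 (98027_at) had 57.6 and 53.9 with TCDD, against 85.8 and 39.4 with DMSO. The TCDD arrays lay close together in both, and DMSO replicate 1 was the highest. The differences were -0.46 ± 0.25 and -0.07 ± 0.29 (SE). Without DMSO replicate 1 that of Col9a3 was -0.20. The other probe set of Col9a3, 162103_i_at, had 11.2 and 6.2 with TCDD, against 2.1 and 7.3 with DMSO. Its groups overlapped, with a log2 difference of 0.26, and it was too dim to be fitted. Col9a1 (104483_at), the third chain, had 48.9 and 46.4 with TCDD, against 17.0 and 32.1 with DMSO, below the minimum and so not tested. Its groups did not overlap, with TCDD higher. Col12a1 and Col14a1, which sit on type I fibrils, and Col19a1 and Col22a1 had mean signals between 1.88 and 23.2.

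Taken as a tissue group, the cartilage collagens Col2a1, Col9a1, Col9a2, Col9a3, Col10a1, Col11a1 and Col11a2 had 8 probe sets, of which 3 were fitted. All 3 were lower with TCDD, at -0.46, -0.07 and -0.02, where 48.9% of all fitted probe sets were lower. Over all 8, fitted or not, 3 were higher and 5 lower, beside 4873 higher and 7545 lower of all 12422. The largest differences were those of the unfitted Col11a2 (0.79) and Col9a1 (0.68), both higher with TCDD. Col9a2 was at 0.37 without DMSO replicate 1, and Col11a1 was at 0.18 without DMSO replicate 2 and 0.07 without TCDD replicate 1. Col2a1, the main cartilage collagen (95410_s_at), had 11.0 and 18.9 with TCDD, against 38.3 and 10.3 with DMSO. Col11a2 (103616_at) had 50.3 and 17.1 with TCDD, against 20.4 and 4.3 with DMSO. The groups overlapped for both. The 4 cartilage markers on the array summed to 19.5 and 22.5 with TCDD, against 33.8 and 21.8 with DMSO. Of these, 3 were below 16 on each array, and Acan, the gene of the cartilage proteoglycan aggrecan, had at most 25.2.

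Of the transmembrane, basement membrane and remaining collagens, the fitted probe sets other than that of Col17a1 had differences between -0.31 and 0.03. Col18a1, the gene of a basement membrane proteoglycan that releases endostatin, was read at 5 probe sets, of which 4 were fitted, with differences from -0.13 to -0.04. At 99638_at it had 226.0 and 279.4 with TCDD, against 270.8 and 248.8 with DMSO. The fifth, 101880_at, had 3.7 and 2.2 with TCDD, against 16.2 and 8.1 with DMSO. Its groups did not overlap, with a log2 difference of -0.56, but its mean signal of 7.55 kept it out of the fit. Col15a1, its relative in vessel and muscle basement membranes (99637_at), had 53.9 and 54.3 with TCDD, against 87.7 and 56.6 with DMSO, a difference of -0.31 ± 0.25 (SE). The groups did not overlap for Col15a1, with DMSO replicate 1 standing above the other 3 arrays. Col13a1, a transmembrane collagen of adhesion sites (102261_f_at), had 80.5 and 67.4 with TCDD, against 80.0 and 95.5 with DMSO. Col26a1 (97982_at) had 434.6 and 487.6 with TCDD, against 395.0 and 514.9 with DMSO, with the TCDD values inside the DMSO range. The second probe set of Col13a1 (102262_r_at) had 53.0 and 29.7 with TCDD, against 69.6 and 30.9 with DMSO, and was not fitted.

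Probe sets of the same gene did not always give the same sign. Of the 31 genes 9 had more than 1 probe set, and 6 had more than 1 in the fit. The sign of the difference was the same over the fitted probe sets of Col5a1 and Col18a1 and differed for Col1a1, Col1a2, Col3a1 and Col6a1. This tally rests on single arrays: signs differed for Col5a1 and Col18a1 but not Col1a1 without DMSO replicate 1, for Col18a1 also without DMSO replicate 2, and for Col18a1 but not Col3a1 without TCDD replicate 1. For Col1a2 and Col6a1 they differed with any array left out. The span between the lowest and highest difference of a gene was 0.73 for Col1a2, 0.44 for Col1a1, 0.35 for Col3a1, 0.18 for Col6a1, 0.09 for Col18a1 and 0.02 for Col5a1. In the case of Col1a2 the intervals of its 2 probe sets, -0.03 to 0.75 and -0.87 to 0.12, overlapped. A suffix other than plain _at marks probe sets that the manufacturer could not design to its usual rules or that may match more than 1 transcript. All 7 fitted collagen probe sets with such a suffix were lower with TCDD, while of the 22 with plain _at 10 were higher and 12 lower. With 1 array left out the 7 lower became 4 without DMSO replicate 1, 5 without DMSO replicate 2, 6 without TCDD replicate 1 and 5 without TCDD replicate 2. Over all fitted probe sets, 570 of 1009 with such a suffix were lower and 2518 of 4774 with plain _at were higher.

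**Figure D3:**
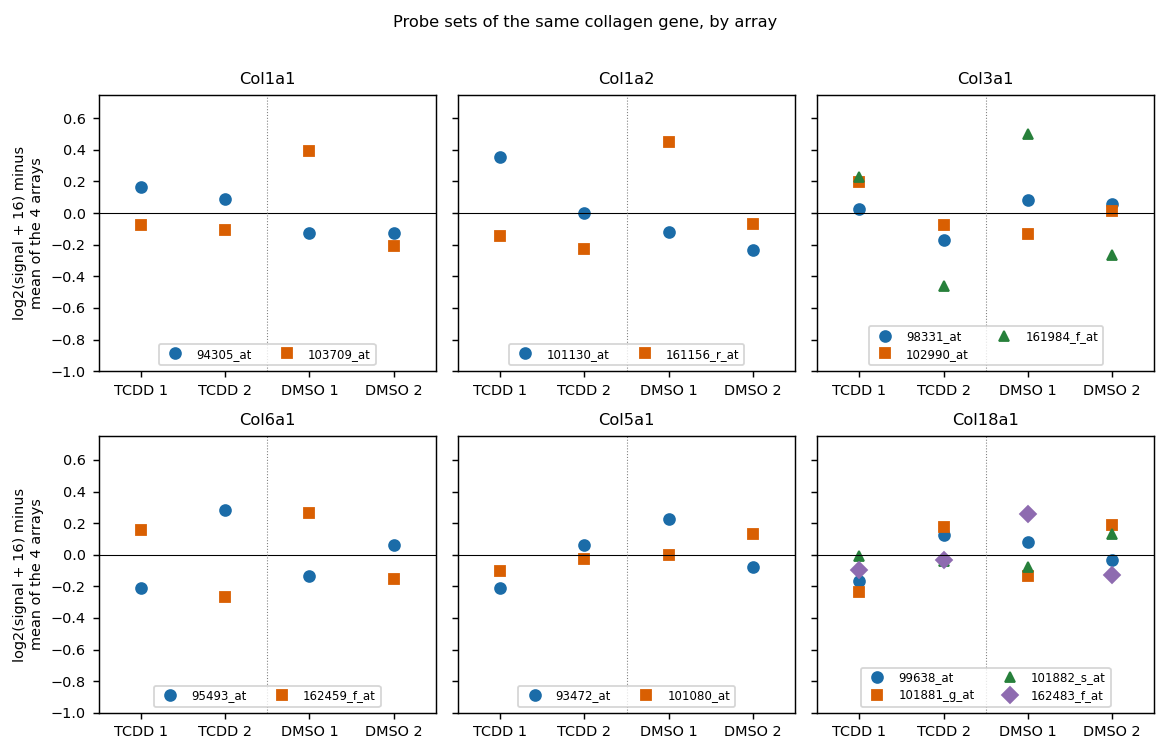
Log2(signal + 16) minus the mean of the 4 arrays (vertical axis) on each array, for the fitted probe sets of 6 collagen genes; each marker shape is 1 probe set. The probe sets 103709_at of Col1a1 and 161156_r_at of Col1a2 peak on DMSO replicate 1, where the brighter probe set of each gene lies below its own mean.

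DMSO replicate 1 was the highest of the 4 arrays at 11 of the 29 probe sets (37.9%), beside 28.4% over all fitted probe sets. TCDD replicate 1 was the lowest at 10 of the 29 (34.5%), beside 28.7% over all. The array whose label lists ascorbic acid, DMSO replicate 2, was above DMSO replicate 1 at 13 of the 29 and below it at 16, with a median log2 difference of 0.03 in favour of replicate 1. Between the TCDD arrays, neither with ascorbic acid on its label, replicate 2 was above replicate 1 at 14 and below it at 15. Ascorbic acid, RNA amount and replicate number cannot be told apart here. Without DMSO replicate 2 the median difference of the collagen probe sets was -0.08, and limma again called 0 of them.

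**Figure D4:**
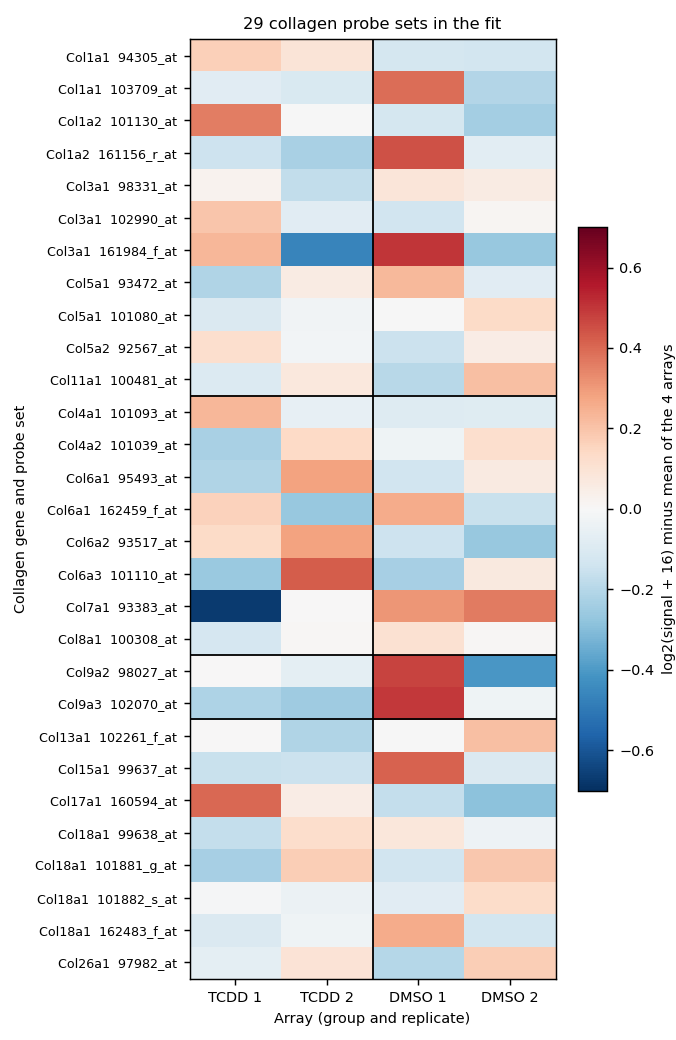
Deviation of log2(signal + 16) from the mean of the 4 arrays (colour) at the 29 fitted collagen probe sets (rows, black lines between classes) on each array (columns, TCDD left of DMSO). Columns of the same group often differ in colour, as with Col6a3 between the TCDD arrays and Col9a2 between the DMSO arrays.

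Skeletal muscle markers also split by replicate number. The 8 muscle markers summed to 1041 and 382 with TCDD, against 804 and 339 with DMSO, so replicate 1 was the higher in both groups. The bone marker Ibsp, the gene of bone sialoprotein, had 1053.6 and 446.7 with TCDD, against 1029.2 and 479.6 with DMSO, also with replicate 1 the higher. Alpl, an alkaline phosphatase gene of the same bone list, had 183.9 and 211.8 with TCDD, against 163.7 and 221.8 with DMSO, with replicate 2 the higher in both. The macrophage list summed to 737 and 677 with TCDD, against 537 and 519 with DMSO, with all 6 fitted members higher. Of these, 3 had an unadjusted limma p under 0.05, beside 2.59% of all fitted probe sets, and 0 passed the adjusted test. The endothelial list summed to 485 and 428 with TCDD, against 492 and 443 with DMSO. The red blood cell list summed to 3678 and 4841 with TCDD, against 4487 and 4969 with DMSO, and the nerve and glia list to 598 and 496 with TCDD, against 564 and 581 with DMSO. Their part in the collagen values was not tested. Of the 29 collagen probe sets, 10 were higher on replicate 1 in both groups, among them 161984_f_at of Col3a1 and 162459_f_at of Col6a1. Another 8 were higher on replicate 2 in both groups, among them Col6a3 and the brighter probe set of Col6a1. Together 18 of the 29 had the same replicate direction in both groups, beside 3413 of all 5783 fitted probe sets, so this was not particular to collagens.

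The genes that process, bind and degrade collagen were read beside the chains. Of 53 listed genes 40 were on the array and 30 were fitted by their brightest probe set, 13 higher and 17 lower with TCDD, with a median of -0.02. Limma called 0 of them in either direction, and 0 had an unadjusted p under 0.05. The arrays did not overlap at 3 higher and 3 lower of the 30, beside 15.3% higher and 14.6% lower over all fitted probe sets. All 7 hydroxylation genes on the array were fitted, 3 higher and 4 lower, as were 6 of 7 genes of folding and secretion, 4 higher and 2 lower.

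Those with the smallest p were spread over the steps of collagen handling. Dcn, the gene of decorin, a proteoglycan that binds type I fibrils, had 529.2 and 403.7 with TCDD, against 531.7 and 589.9 with DMSO, a difference of -0.27 ± 0.20 (SE). Bgn, the gene of the related biglycan, had 904.9 and 967.0 with TCDD, against 963.6 and 1197.2 with DMSO. Pcolce, which encodes an enhancer of the protease that trims procollagen, had 210.3 and 181.0 with TCDD, against 242.8 and 219.2 with DMSO. For Dcn and Pcolce both TCDD arrays lay below both DMSO arrays.

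Others lay higher. Sec23a, which encodes a coat protein of the vesicles that export procollagen, had 520.2 and 340.4 with TCDD, against 337.8 and 362.6 with DMSO. Mmp13, the gene of a collagenase, had 322.5 and 148.2 with TCDD, against 221.3 and 135.0 with DMSO, with replicate 1 the higher in both groups. Itgb1, the gene of the beta 1 chain shared by collagen-binding integrins, had 1765.3 and 1808.9 with TCDD, against 1520.4 and 1729.9 with DMSO. The groups overlapped for Sec23a and Mmp13 and parted for Itgb1.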

How the data were processed

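The deposited table holds 1 intensity per probe set and array: MAS5 signals on a linear scale, made by the authors with Affymetrix Microarray Suite 5.0 and scaled to a target signal of 100, per the labels and the series' design text. The genome build is not given in the sources used here, no detection calls were used, and precision is limited by having 4 arrays. Of 49952 cells, 18515 (37.1%) held the serial number of a calendar day. These were turned back into day.month decimals, all at most 31.8, after which the mean signal with trimmed ends was 100.05 on each array. They touch 14 collagen probe sets, none of them fitted.

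Symbols came from the platform annotation through Entrez IDs in the GRCm38.p6 gene table (10855 of 12488 probe sets with 1 symbol, 10839 matched). The fit used limma 3.58.1 in R 4.3.3 (lmFit, eBayes with a trend) on log2(signal + 16), on probe sets with a mean of at least 50 and without 66 controls. The code was also run on simulated data with known changes and independent noise on each array. That run was a check of the code and is not used to read the collagen results. Alternatives were the offset, the filter, quantile normalization, each array left out, a block for replicate number and the day serials set to 16. P-values, SEs and intervals from limma rest on the spread between pools, but mostly as shared over all fitted probe sets. Of 10.8 degrees of freedom behind each variance, 8.8 came from that shared trend. Any collagen probe set could be named, with up to 6 genes of the processing list by p and 2 of a marker list by signal. Krt5, Krt14 and Cdh1 were named after their values were seen. The members and lists were chosen with earlier results of these data known.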

Additional observations from a re-analysis of the deposited data

How the results depend on the processing

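Both medians of the collagen differences, over probe sets and over genes, moved by less than 0.111 in each of the 10 alternatives with a fit. That bound is the SD between replicates of an array's median collagen signal on the log2 scale. It comes from the same 4 arrays and is not the spread of a difference. The median over genes, -0.031 with all arrays, turned positive without DMSO replicate 2 (0.079) and without TCDD replicate 1 (0.050). That over probe sets turned positive without DMSO replicate 1 (0.00032). Limma called 0 collagen probe sets and 0 genes of the collagen processing list in each alternative that kept all 4 arrays. Over all probe sets the count of 4 became 2 without the filter, 32 with the replicate block and 2 to 5 with 1 array left out. The collagen probe sets without overlap, 12 with all arrays, numbered 10 after quantile normalization (29.7% of all fitted) and 19 to 24 with 1 array left out (59.5% to 69.6% of all). A block has no such count. The replicate numbers share no stated source. Replicate differences in TCDD and DMSO correlated at 0.381 over fitted probe sets. With the replicate block no collagen passed, and Col7a1 had a limma adjusted p of 0.0878.

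Of 290 values of single collagen probe sets, 268 kept direction and call. The other 22, at 15 probe sets, changed sign with 1 array left out, where fewer arrays enter. The largest of these differences with all arrays was 0.231 in size. With 1 array left out in turn, differences ranged from -0.51 to 0.37 for Col9a2 (98027_at), -0.48 to 0.11 for Col1a1 (103709_at), -0.61 to 0.15 for Col3a1 (161984_f_at), -0.30 to 0.0039 for Col5a1 (93472_at) and -0.17 to 0.32 for Col6a1 (95493_at). They were -0.32 to 0.11 for Col6a1 (162459_f_at), -0.19 to 0.10 for Col18a1 (99638_at), -0.33 to 0.062 for Col18a1 (162483_f_at), -0.16 to 0.21 for Col26a1 (97982_at) and -0.22 to 0.18 for Col11a1 (100481_at). They were -0.26 to 0.15 for Col18a1 (101881_g_at), -0.16 to 0.053 for Col18a1 (101882_s_at), -0.019 to 0.25 for Col3a1 (102990_at), -0.27 to 0.093 for Col4a2 (101039_at) and -0.18 to 0.51 for Col6a3 (101110_at). The day serials bear on the unfitted collagens, for which no detection calls were used.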
